A study of Mus musculus with 9 samples.

Results

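Right ventricular transcripts were compared between mice with the nutritional intervention and mice on the standard diet, all treated with monocrotaline. Of the 9 arrays in the series (Affymetrix mouse gene 1.1 ST, 1 array per mouse), 6 belonged to this comparison, 3 MCT + NI mice (numbers 615, 617 and 619) and 3 MCT mice (640, 641 and 644), and the other 3 were sham mice (620, 624 and 625) that served as the reference level. All were female C57BL/6 mice that arrived at 8 weeks of age. From 10 weeks of age MCT and MCT + NI mice received monocrotaline (600 mg/kg) under the skin each week for 8 weeks, and sham mice received saline in its place. Sham and MCT mice ate the semi-synthetic AIN-93M diet. The feed of MCT + NI mice was formulated to equal calories and enriched in protein, leucine, fish oil and oligosaccharides. The paper reports a lower cumulative food intake in MCT + NI mice than in either other group. The amount eaten and the composition of the feed thus cannot be told apart here. The labels put the start of the diets 2 weeks before the first injection, and the methods name a shorter lead. The methods describe the arrayed mice as matched for disease severity. No saline group received the NI diet, so the effect of the diet without monocrotaline is not analysed here, and the 4 enriched components cannot be told apart. Each of 18820 genes was represented by 1 probe set annotated to that gene alone, the brightest over the 9 arrays, and all values are log2 intensities from robust multi-array analysis (RMA), as deposited. A difference of 1 on this scale is a doubling of the signal.

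Monocrotaline is a plant alkaloid whose metabolites injure the vessels of the lung, which raises the load on the right ventricle. The ventricle covers most of its energy need by burning fatty acids in mitochondria, where acetyl-CoA feeds the tricarboxylic acid cycle and the respiratory chain drives ATP synthase. Fish oil fatty acids are ligands of PPAR alpha, a nuclear receptor that induces genes of fatty acid oxidation, and leucine activates mTORC1, a kinase complex that promotes growth and protein synthesis.

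Ventricular markers were strong on every array, whereas transcripts of the atrium, which the label does not name, were strong on 5 of the 9. The 14 ventricular cardiomyocyte markers had a median difference of 0.024 between MCT + NI and MCT mice, and Myl2, the regulatory light chain of ventricular myosin, lay between 12.67 and 12.76 in all 9 mice. The 12 skeletal muscle markers had a median difference of -0.037. Myl7, the atrial myosin light chain, was at 10.55 to 11.77 in sham mice, 11.40 in MCT mouse 644 and 9.79 in MCT + NI mouse 615, but at 3.07 to 5.21 in the other 4 mice. Likewise the mean log2 value of 16 atrial markers was 9.02 in MCT mouse 644 against 6.09 and 6.33 in mice 640 and 641, and 8.03 in MCT + NI mouse 615 against 6.62 and 6.20 in mice 617 and 619, with 8.69 to 9.33 in sham mice. As these are bulk samples, fewer cells of a type and less RNA per cell cannot be told apart. The array medians ran from 4.77 to 4.79, and the small number of arrays limits the precision.

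The diet groups differed by little in most genes, and no single gene passed adjustment for the number of genes tested. In limma, 0 of the 18820 genes had an adjusted p under 0.05 (0.0%), and the smallest adjusted p was 1. At an unadjusted p under 0.05, 300 genes were higher with NI than without (1.59%) and 245 were lower (1.3%), together 545, where a test without any difference would pass 941. At an unadjusted p under 0.01, 40 were higher (0.213%) and 31 lower (0.165%). Each MCT + NI mouse lay above each MCT mouse in 586 genes (3.11%) and below each in 558 (2.96%). The mean was higher with NI in 8958 of the 18820 genes and lower in 9847. Counts of higher or lower means in the gene lists are to be read beside these. For comparison, 1179 genes (6.26%) passed an adjusted p under 0.05 when MCT mice were set against sham mice, and likewise 1179 (6.26%) when MCT + NI mice were, the sham arrays being shared.

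The precision was sufficient to bound the differences of most genes, but not to find most small ones gene by gene. In simulated data with independent genes, changed genes were recovered if they had an adjusted p under 0.05. The fit recovered 6% of them at a log2 difference of 0.25, 42% at 0.5 and 88% at 1. The simulated set also held changes of 2, which ease the adjusted threshold. Of its unchanged genes 4.69% had an unadjusted p under 0.05, more than the 1.59% higher and 1.3% lower of the measured genes. The simulation thus did not match the measured values, and the recovered shares are only a rough guide to the count of 0 at an adjusted p under 0.05. The median half-width of the 95% confidence interval was 0.164 for genes at or above the median gene level and 0.244 for dimmer ones. In 88.8% of the genes the interval lay within 0.5 in either direction, and in 98.9% within 1. A difference below -0.31 was found in 1% of the genes and one above 0.29 in another 1%. Only 43 genes differed by more than 0.5, of which 25 lay below the median level, 14 had an unadjusted p under 0.05 and 8 separated the groups without overlap.

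**Figure D1:**
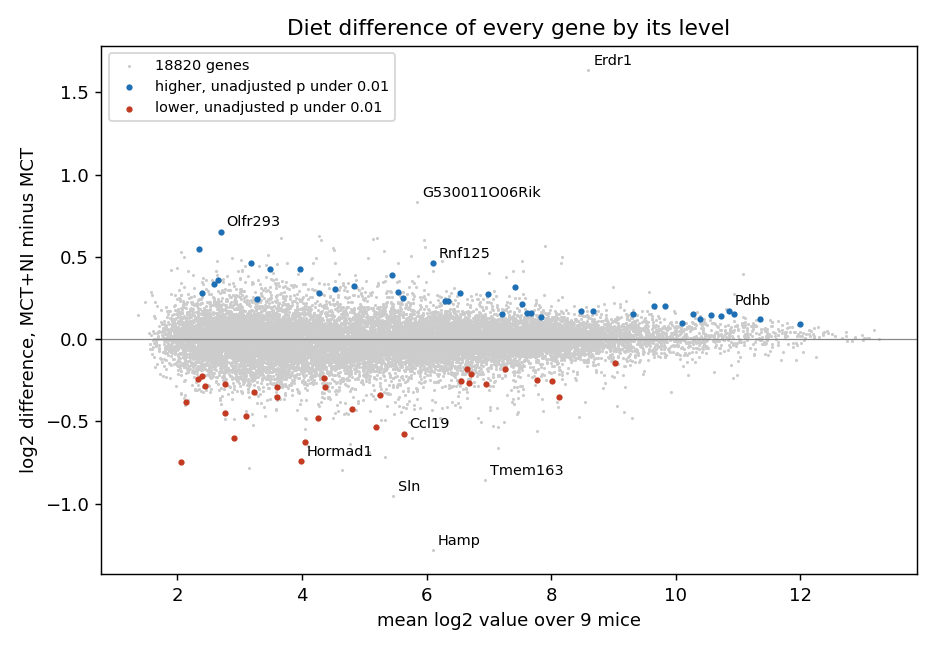
Difference between MCT + NI and MCT mice (log2, 3 mice each) of each of the 18820 genes against its mean log2 value over the 9 mice, with the 40 genes that were higher and the 31 that were lower at an unadjusted p under 0.01 in colour. The spread narrows from the dim to the bright genes, and the points farthest from 0 (Erdr1, Hamp, Sln) are not among the coloured ones.

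The genes named as higher in MCT + NI mice were the 12 with the largest difference among 28 that combined an unadjusted p under 0.01, no overlap between the diet groups and a mean level not below that of the median gene. Rnf125, a ubiquitin ligase that acts on the viral RNA sensor RIG-I, had the smallest p of all genes. It was at 6.47, 6.34 and 6.29 in the MCT + NI mice, 5.96, 5.86 and 5.90 in the MCT mice and 5.99, 6.02 and 6.12 in the sham mice. The MCT + NI mice were thus above all 6 other mice, by 0.46 relative to MCT mice (standard error 0.067, 1.38-fold, unadjusted p = 7.4e-05 in limma). Ppcs, an enzyme of coenzyme A synthesis from pantothenate, was at 5.54, 5.90 and 5.55 with NI and at 5.31, 5.21 and 5.29 in MCT mice, a 1.31-fold difference. Its mean difference of 0.39 was led by mouse 617 and was 0.24 without mouse 617 and MCT mouse 641. Slc16a1, a plasma membrane carrier of lactate, pyruvate and ketone bodies, was at 9.87, 10.04 and 9.99 with NI and at 9.83, 9.76 and 9.71 without it. Sham mice lay between 9.74 and 9.83, so the MCT + NI mice were the highest of the 3 groups.

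Others of these genes belonged to mitochondria, lysosomes and vessels. Mthfd2l, a mitochondrial enzyme of folate metabolism, was at 6.67, 6.73 and 6.65 with NI and at 6.40, 6.31 and 6.48 in MCT mice. Lamtor1, which anchors the amino acid sensing Ragulator complex to the lysosome, was at 7.02, 7.05 and 7.24 against 6.77, 6.76 and 6.95. Both genes have 2 probe sets, and with their mean in place of the brighter one the differences of 0.28 and 0.27 were 0.19 and 0.086. Mpst, a sulfurtransferase that releases hydrogen sulfide, was at 6.40, 6.47 and 6.38 with NI, 6.18, 6.23 and 6.14 in MCT mice and 6.39 to 6.52 in sham mice, so that 2 of the 3 NI values lay among the sham values and 1 just below them. Sox18, a transcription factor of endothelial cells, was at 7.90, 7.92 and 7.85 with NI, 7.68, 7.64 and 7.72 in MCT mice and 6.97 to 7.03 in sham mice. Here the MCT + NI mice were farthest from sham (1.86-fold, against 1.60-fold in MCT mice). Lin7a, a scaffold of cell junctions, stood in the same order, with a mean of 5.90 ± 0.073 (SD, n = 3) in MCT + NI mice, 5.61 ± 0.051 in MCT mice and 5.14 ± 0.14 in sham mice. The lysophosphatidic acid receptor gene Lpar6 differed by 0.31, the zinc finger gene Zfp182 by 0.25, Myadml2 by 0.23 and Ndufb8 of respiratory complex I by 0.20. The difference of Lpar6 was 0.19 without MCT mouse 644 and MCT + NI mouse 615.

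In the other direction 11 genes met the same conditions. Ccl19, a chemokine that draws lymphocytes and dendritic cells through the receptor CCR7, was at 5.34, 5.05 and 5.45 in MCT + NI mice, 5.66, 5.78 and 6.12 in MCT mice and 5.74, 5.62 and 6.00 in sham mice. MCT and sham mice overlapped, and each MCT + NI mouse lay below both (difference from MCT -0.57, standard error 0.153, 0.672-fold). The gene has 5 probe sets and near-identical copies in the mouse genome, so its signal may include theirs. Bhlhe40, a transcriptional repressor of the circadian clock, was at 8.00, 8.10 and 7.95 with NI, 8.29, 8.56 and 8.26 in MCT mice and 7.88, 7.93 and 8.14 in sham mice. The NI values lay among the sham values and below all MCT values. Trpm4, a cation channel opened by calcium, was at 6.39, 6.49 and 6.50 with NI, 6.66, 6.85 and 6.67 in MCT mice and 6.80 to 6.87 in sham mice.

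A pair of these genes act in succession on the same sugar. Uap1, which makes the UDP-N-acetylglucosamine used for protein glycosylation, was at 7.06, 7.14 and 7.21 with NI, against 7.30, 7.29 and 7.35 in MCT and 7.33 to 7.35 in sham mice. Ogt, which transfers this sugar to serine and threonine of intracellular proteins, was at 8.96, 8.94 and 8.89, against 9.06, 9.12 and 9.04 in MCT and 9.02 to 9.14 in sham mice. In both genes the MCT mice were at or near the sham level and the MCT + NI mice were below it (differences from MCT of -0.18 and -0.15, 0.884-fold and 0.904-fold). Wbp2, a coactivator of nuclear receptors, differed by -0.25 and Miga1, which promotes fusion of mitochondria, by -0.18, and in both the MCT + NI mice were the farthest from sham. Zfp800, a zinc finger gene, was at 6.61, 6.62 and 6.66 with NI and 6.84 to 6.85 in MCT mice, with 6.64 to 6.73 in sham mice. Rida, an enzyme that clears reactive imines, differed by -0.26. Adamts1, a protease of proteoglycans, and Tgfb1i1, a focal adhesion protein, differed by -0.27 and -0.25.

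**Figure D2:**
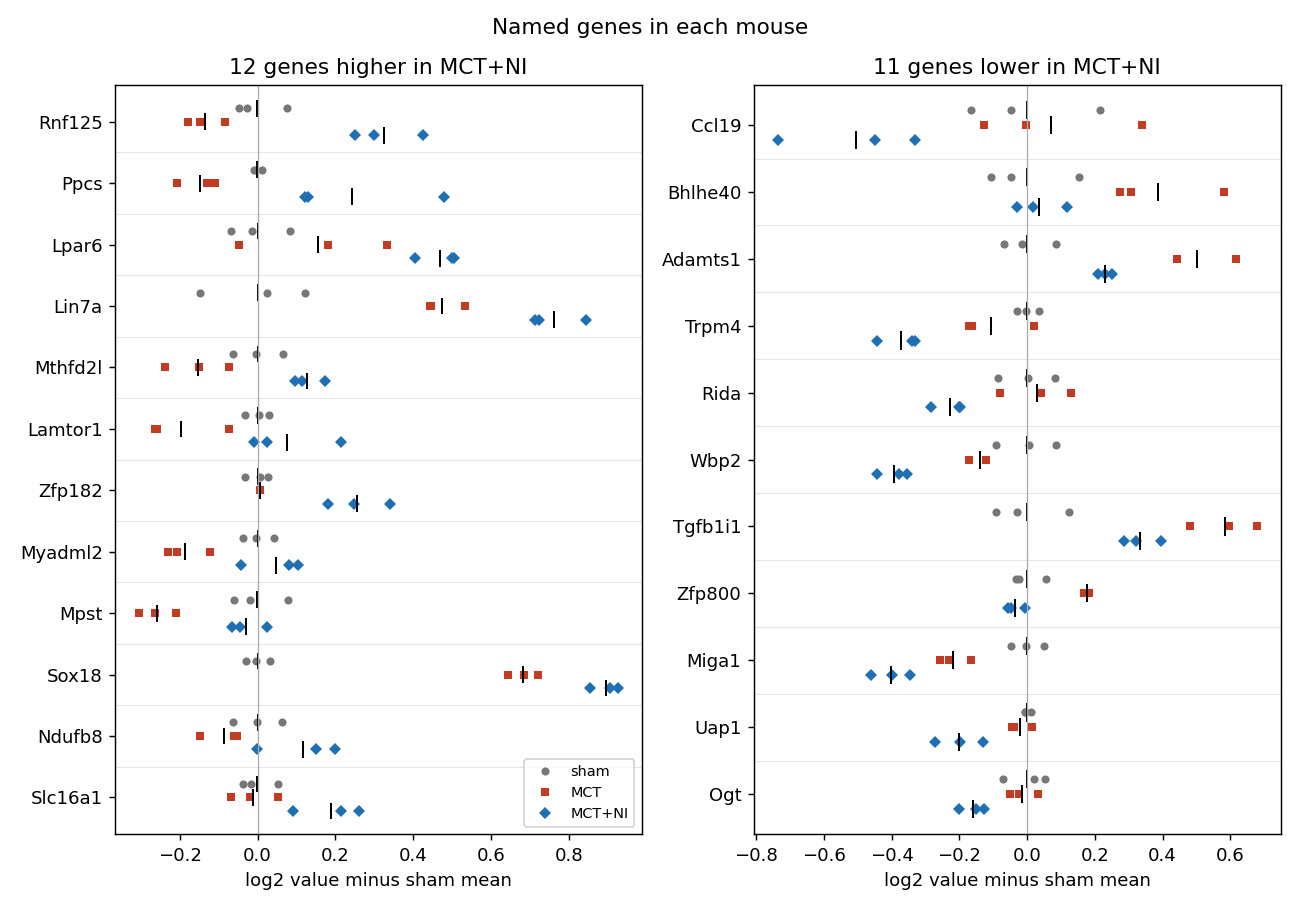
Log2 values minus the sham mean of the 12 genes named as higher and the 11 named as lower in MCT + NI mice, with 1 point per mouse (circles sham, squares MCT, diamonds MCT + NI) and a bar at each group mean. The diamonds and squares do not overlap in any gene, which the choice of the genes fixed, and the diamonds lie near 0 in genes such as Mpst and Bhlhe40 and far from it in Sox18 and Lin7a.

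Among genes of any level, the smallest p-values in the upward direction after Rnf125 included Chchd2 and Pdhb, both of mitochondria. Chchd2, a protein of the space between the mitochondrial membranes, was at 10.77, 10.77 and 10.76 with NI, 10.63, 10.65 and 10.61 in MCT mice and 10.74 to 10.80 in sham mice (difference 0.14, unadjusted p = 0.00068 in limma). Pdhb, the beta subunit of the E1 component of pyruvate dehydrogenase, was at 10.92, 10.93 and 10.88 with NI, 10.71, 10.80 and 10.71 in MCT mice and 10.88 to 10.98 in sham mice. In both genes the MCT + NI mice lay within or next to the sham values. In the downward direction the smallest p-values included dim genes. Hormad1, a meiotic chromosome protein, was at 3.58, 3.29 and 3.73 with NI against 4.30, 4.43 and 4.08 in MCT mice, and Olfr1148, an olfactory receptor, was at 3.76, 3.81 and 3.61 against 4.16, 4.44 and 4.45. Such values are near the lower end of the scale. Of the 71 genes at an unadjusted p under 0.01, 32 lay below the median gene level, which splits all genes evenly. Dim genes were thus not over-represented among them. Olfactory receptors made up 7 of the 71, and 990 of all 18820 genes tested.

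Among the 45 gene lists, that of the respiratory chain had the largest share of genes that lay higher with NI. Of 64 measured genes of complexes I, III and IV and of ATP synthase, 18 were higher with NI at an unadjusted p under 0.05 (28.1%, against 1.59% of all genes) and 0 were lower. In 63 of the 64 the mean was higher with NI, against 8958 of all 18820 genes. Each MCT + NI mouse lay above each MCT mouse in 22 of the 64, and in 3.11% of all genes. The median difference was 0.071 (all genes -0.0046), and the largest was 0.20. Members of 1 complex are regulated together and measured on the same mice, so they are not independent observations. The count of 18 was 8 without MCT + NI mouse 617, 10 without that mouse and MCT mouse 641, 7 without the intensity trend and 11 after quantile normalization, with no member passing as lower in any of these.

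The complexes differed in how many members passed. Of 35 complex I genes by name (Nduf), 11 passed and 35 were higher, with a median of 0.096, Ndufa4 among them being nowadays assigned to complex IV. Of 8 complex III genes 5 passed and 8 were higher (median 0.095). Of 10 complex IV genes 1 passed, Cox5b, and 10 were higher (median 0.041). Of 11 ATP synthase genes 1 passed, Atp5d, and 10 were higher (median 0.045). Uqcrfs1, the Rieske iron-sulfur protein of complex III, was at 10.29, 10.38 and 10.34 with NI, 10.17, 10.19 and 10.18 in MCT mice and 10.28 to 10.38 in sham mice. Ndufv2, an iron-sulfur subunit of complex I, was at 10.59, 10.68 and 10.57 with NI, 10.44, 10.47 and 10.48 in MCT mice and 10.57 to 10.64 in sham mice. In both genes the MCT + NI mice lay among or just beside the sham mice and the MCT mice below them.

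**Figure D3:**
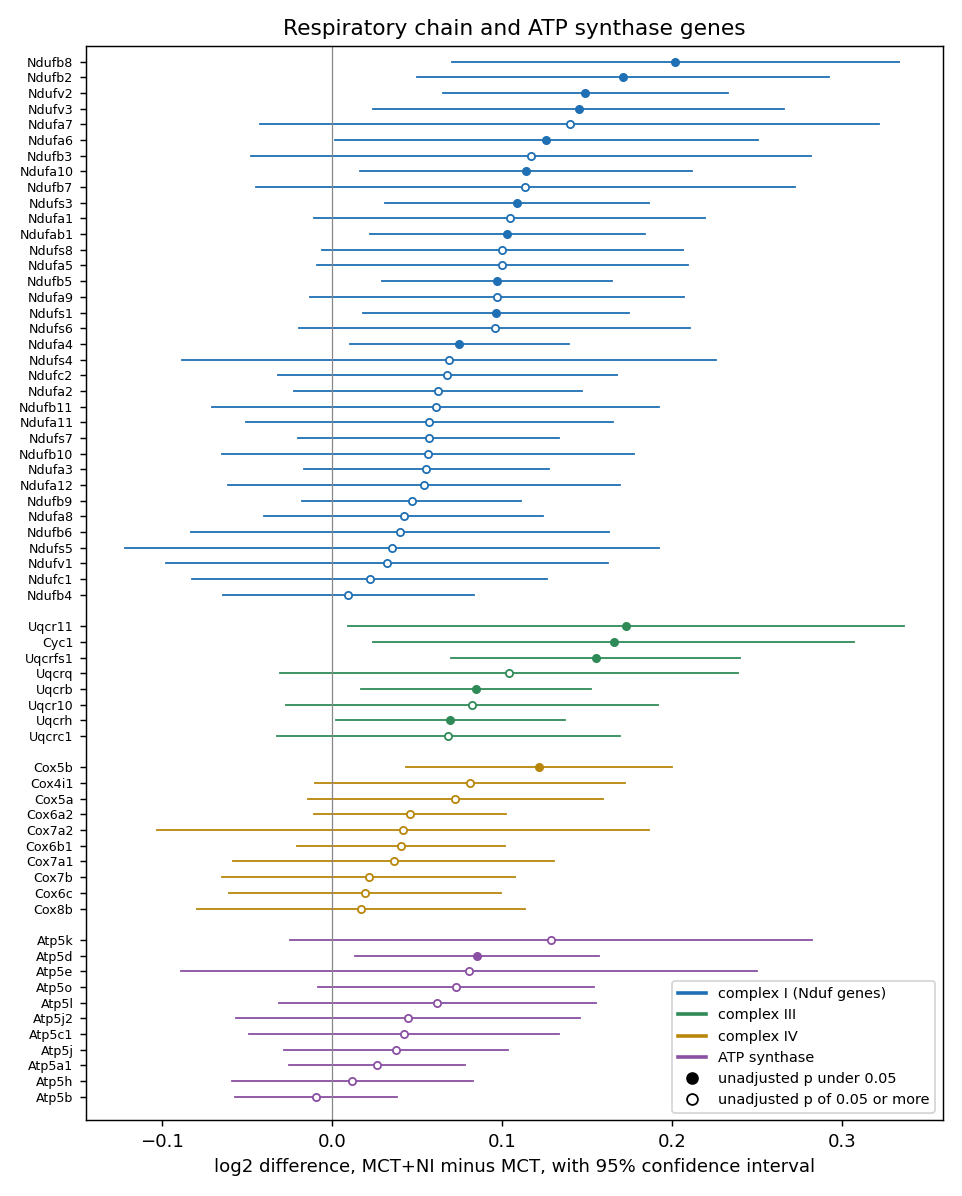
Difference between MCT + NI and MCT mice (log2) with its 95% confidence interval for the 64 genes of the respiratory chain and ATP synthase, ordered by complex and by size, filled points marking an unadjusted p under 0.05. All points but that of Atp5b lie above 0, 11 of the 35 complex I genes and 5 of the 8 complex III genes are filled, and few of complex IV or ATP synthase are.

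Because these genes lay higher together, their promoters were read from RefSeq windows of 300 bases (250 before to 50 after the gene start, GRCm38.p6), of which 54 of the 64 genes had 1. The core of the site of NRF1, a transcription factor known for nuclear genes of mitochondria, spelled GCATGCGC and searched on both strands, was found in 7 of 54 (13.0%), against 4.33% of the 14749 tested genes with a window. It was also found in 5 of 29 genes of mitochondrial ribosomal proteins (17.2%). Of 4 other motifs searched in the same windows, AAGGTCA, the site of estrogen-related receptors, was found in 6 of the 54 (11.1%, against 4.51%), TGACGTCA in 4 (7.41%, against 2.77%), CACGTG in 3 (5.56%, against 9.57%) and TTATGTAA in 1 (1.85%, against 0.949%). These shares are descriptions of letters in the windows, with no test. The windows of Ndufa6 and Uqcr11 are shown because both hold the core and were among the 18, and they were chosen after their values had been seen. The core was also in the windows of Ndufa8, Ndufa11, Uqcrc1, Atp5k and Atp5l, and neither Atp5k nor Atp5l was among the 18. Whether the core goes with the diet difference was not tested. The capitals mark the core.

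Ndufa6 (chr15:82354242-82354541, minus strand): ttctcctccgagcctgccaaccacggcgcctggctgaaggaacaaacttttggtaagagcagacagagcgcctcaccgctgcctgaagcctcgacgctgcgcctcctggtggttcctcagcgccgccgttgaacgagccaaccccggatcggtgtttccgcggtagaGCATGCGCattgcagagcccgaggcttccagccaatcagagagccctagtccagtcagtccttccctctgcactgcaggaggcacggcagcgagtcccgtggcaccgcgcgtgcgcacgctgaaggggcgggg
Uqcr11 (chr10:80406772-80407071, minus strand): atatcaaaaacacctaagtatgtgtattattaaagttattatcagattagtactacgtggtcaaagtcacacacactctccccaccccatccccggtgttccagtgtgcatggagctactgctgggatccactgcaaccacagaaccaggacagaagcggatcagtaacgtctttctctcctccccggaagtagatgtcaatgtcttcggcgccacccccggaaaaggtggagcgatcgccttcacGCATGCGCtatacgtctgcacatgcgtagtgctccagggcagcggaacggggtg

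The core begins 83 bases before the start of Ndufa6, a subunit of complex I, and 4 bases before that of Uqcr11, a small subunit of complex III. Ndufa6 was at 9.75, 9.83 and 9.72 with NI and 9.64, 9.56 and 9.72 in MCT mice, a difference of 0.13. Uqcr11 was at 9.53, 9.68 and 9.62 with NI and 9.38, 9.48 and 9.45 in MCT mice, a difference of 0.17. The groups met at 9.72 in Ndufa6 and did not overlap in Uqcr11.

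Other mitochondrial lists lay on the same side. Of 35 mitochondrial ribosomal protein genes, 31 had a higher mean with NI (median 0.099). At an unadjusted p under 0.05, 4 passed as higher (11.4%, against 1.59% of all genes) and 0 as lower. Mrps5, of the small subunit, was at 7.65, 7.72 and 7.70 with NI, 7.55, 7.54 and 7.50 in MCT mice and 7.56 to 7.62 in sham mice, so the NI values were above both other groups. Their count of 4 was 10 without MCT + NI mouse 615, 9 without it and MCT mouse 644, and 2 without the intensity trend, without mouse 640 of the MCT group or without 617 or 619. Of 27 genes of pyruvate dehydrogenase and the tricarboxylic acid cycle, 26 had a higher mean (median 0.061). Of these 27 genes 6 passed as higher (22.2%, against 1.59% of all genes) and 0 as lower. Sucla2, the ATP-forming subunit of succinyl-CoA ligase, was at 10.94, 11.03 and 11.01 against 10.83, 10.90 and 10.80 in MCT mice, and its partner subunit Suclg1 at 9.49, 9.58 and 9.50 against 9.34, 9.43 and 9.40. Neither gene overlapped between the diet groups. The count of 6 was 2 without MCT + NI mouse 617 or without the intensity trend, and 3 without mouse 619, without mice 617 and 641 together or after quantile normalization.

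Genes that handle the enriched nutrients were described next. Of 29 PPAR alpha responsive genes of fatty acid use, 25 had a higher mean with NI (median 0.076), but 0 passed in either direction (0 to 3 as higher under the alternatives). Acaa2, which carries out the last step of beta-oxidation, was at 11.18, 11.22 and 11.17 with NI, 11.07, 11.16 and 11.04 in MCT mice and 11.34 to 11.53 in sham mice, and the fatty acid carrier Cd36 overlapped between the diet groups (11.57, 11.44 and 11.60 against 11.51, 11.35 and 11.40). Of 25 genes of lipogenesis and 20 of cholesterol metabolism 0 passed, with 13 higher in each. Of 30 genes of eicosanoid enzymes and receptors 1 passed, as lower (3.33%, against 1.3% of all genes). Cyp4f18, which hydroxylates leukotrienes, was at 3.49, 3.50 and 3.55 with NI, 3.87, 3.82 and 3.72 in MCT mice and 3.39 to 3.55 in sham mice. Ptgds, a prostaglandin D2 synthase, was at 9.04, 8.17 and 8.67 with NI and 8.15, 8.19 and 8.15 in MCT mice (difference 0.46, 95% interval -0.04 to 0.96). Mice 615 and 619 were above the MCT mice and mouse 617 was among them.

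Leucine is broken down in mitochondria through the branched-chain pathway. Of its 25 measured genes 4 passed as higher (16.0%, against 1.59% of all genes), 0 as lower, and 21 had a higher mean (median 0.059). Auh, the methylglutaconyl-CoA hydratase of leucine breakdown, was at 8.26, 8.27 and 8.32 with NI, 8.05, 8.19 and 8.12 in MCT mice and 8.29 to 8.51 in sham mice, and Pcca, a subunit of propionyl-CoA carboxylase, was at 8.71, 8.74 and 8.71 against 8.62, 8.66 and 8.63. The NI values of both lay between those of the other groups or at the lower sham values. Dld, the dehydrogenase subunit that this pathway shares with pyruvate dehydrogenase, was at 10.42, 10.47 and 10.39 with NI against 10.28, 10.34 and 10.28. The count of 4 was 7 with the 6 arrays fitted alone, 1 without MCT mouse 644 or MCT + NI mouse 617, and 2 without mouse 640 or 619, without either pair of mice, without the intensity trend or with the atrial score as a covariate. Of 35 genes of mTORC1 and amino acid sensing 1 passed, Lamtor1 (2.86%, against 1.59% of all genes), and 19 were higher (8958 of all 18820 genes). Of 25 genes of the ATF4 response to amino acid shortage 1 passed, Cebpg, a partner of other C/EBP factors, at 0.17. Among 23 amino acid transporters 1 passed, as lower: Slc1a4, a carrier of neutral amino acids, at -0.18. Of 27 genes of muscle wasting 2 passed as higher (7.41%, against 1.59% of all genes), the autophagosome protein gene Map1lc3a and the transcription factor gene Foxo4, at 0.16 and 0.15. The count of 2 was 0 without mouse 640 or 619, and 1 without mouse 641, 644 or 617 or without either pair of mice. In growth factor signalling (24 genes) 1 passed, as lower, the kinase gene Akt1 at -0.10, and Igf1 was at 6.79, 6.30 and 6.40 with NI against 6.67, 6.84 and 6.76 in MCT mice. Of 23 genes of glycolysis 1 passed, Pkm, at 0.08. Over all genes 1.59% passed as higher and 1.3% as lower. A count of 1 in lists of 23 to 35 genes is not read as a result about the list.

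Cytosolic ribosomal protein genes differed from the mitochondrial ones in direction. Of 41 measured, 3 passed as lower with NI (7.32%, against 1.3% of all genes) and 0 as higher, with a median of -0.020. Rps23, of the small subunit, was at 11.20, 11.21 and 11.19 with NI and 11.26, 11.27 and 11.34 in MCT mice. The differences were small (-0.09 for Rps23 and -0.11 for Rpl10a), and the count of 3 was 0 after median centring or without the intensity trend, 1 without MCT mouse 644, alone or together with mouse 615, 5 after quantile normalization and 6 without moderation of the variances.

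The inflammatory lists held from 0 to 3 genes that passed. Of 31 chemokines and adhesion molecules 3 passed as lower (9.68%, against 1.3% of all genes) and 0 as higher. Besides Ccl19 these were Ccl9, a chemokine of myeloid cells, at 6.64, 6.55 and 6.56 with NI, 6.81, 6.74 and 7.04 in MCT mice and 5.71 to 6.18 in sham mice, and Vcam1, an endothelial adhesion molecule, at 7.12, 7.14 and 6.97 against 7.24, 7.23 and 7.42. Leaving out mouse 644, 617 or 619, or the moderation of the variances, reduced the count of 3 to 1. Of 32 genes of cytokines and NF-kB feedback 1 passed (3.12%, against 1.3% of all genes as lower), the NF-kB subunit gene Rela, at -0.18. Tnf was at 4.80, 4.56 and 5.21 with NI, 5.16, 4.75 and 4.97 in MCT mice and 4.40 to 4.85 in sham mice, and Ptgs2, the inducible cyclooxygenase, at 5.21, 4.94 and 4.66 against 4.88, 5.04 and 5.56 in MCT mice. Both overlapped between the diet groups, with intervals of the difference from -0.52 to 0.31 and from -0.83 to 0.38. Of 29 antioxidant genes and 27 interferon-stimulated genes 0 passed, though 3 of the latter did as higher without MCT mouse 640 or without MCT + NI mouse 617. Among the markers of macrophages and monocytes (19 genes) 16 had a lower mean with NI and 0 passed (median -0.12, but 0.0010 without mouse 617), the mean log2 level of the list being 6.60 to 6.92 in MCT, 6.51 to 6.84 in MCT + NI and 6.41 to 6.62 in sham mice. Its part in the values of the inflammatory genes was not tested.

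Most genes of the matrix lists had a lower mean with NI, but some list medians changed sign without 1 mouse or without a pair of mice. Of 23 collagens 19 had a lower mean, with a median of -0.082 that was 0.020 without mice 641 and 617. This median stayed between -0.13 and -0.031 when 1 mouse was left out. As lower 1 collagen passed (4.35%, against 1.3% of all genes), Col14a1, which associates with collagen fibrils. It was at 7.78, 7.38 and 7.36 with NI, 7.62, 7.99 and 7.93 in MCT mice and 7.19 to 7.31 in sham mice. MCT + NI mouse 615 lay among the MCT mice in this gene. The count of 1 was 0 without mouse 641, 617 or 619 and 4 without mice 644 and 615. Vcan, the proteoglycan versican, was the 1 of 31 matrix glycoproteins and proteoglycans that passed (3.23%, against 1.3% of all genes), at 7.41, 6.91 and 7.37 against 7.77, 7.43 and 7.73. Timp4, an inhibitor of metalloproteases, was at 4.43, 4.84 and 4.53 with NI, 4.17, 3.83 and 4.32 in MCT mice and 6.06 to 7.03 in sham mice, without overlap in either comparison (difference from MCT 0.49, 95% interval -0.04 to 1.03). Of 32 genes of the TGF-beta pathway 3 passed as lower (9.38%, against 1.3% of all genes). They were Tgfb1i1, the receptor gene Bmpr2 (-0.14) and the ligand gene Tgfb2 (-0.21). A lower mean was found in 20 of the 32, against 9847 of all 18820 genes (list median -0.036, but 0.0055 without MCT mouse 644). The count of 3 was 1 without MCT + NI mouse 619, after median centring, or without mice 641 and 617. Fibroblast markers had a lower mean in 16 of 19, with 1 that passed (5.26%, against 1.3% of all genes), the collagen receptor gene Ddr2, at 7.75, 7.69 and 7.69 with NI against 7.85, 7.90 and 7.89. The mean level of the fibroblast list was 7.50 to 7.60 in MCT, 7.36 to 7.62 in MCT + NI and 6.98 to 7.18 in sham mice, and its part in the matrix values was not tested.

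Of 27 immediate early genes, which answer growth signals and stress within minutes, 22 had a lower mean with NI (median -0.089). Of the 27 genes 2 passed as lower (7.41%, against 1.3% of all genes). They were the phosphatase gene Dusp5 and the transcription factor gene Klf2, at -0.34 and -0.25. Fos was at 5.32, 5.84 and 4.98 with NI and 6.10, 6.11 and 5.45 in MCT mice, and mouse 617 lay among the MCT mice. The count of 2 was 0 without mouse 619, 4 without mouse 644 or 617 and 1 without mouse 640, 641 or 615, with the 6 arrays fitted alone, after median centring or without moderation. Among 29 genes of hypertrophy and the fetal program 2 passed as higher (6.9%, against 1.59% of all genes). Tnnc1, cardiac troponin C, was at 12.12, 12.07 and 12.05 with NI, 11.99, 11.99 and 11.97 in MCT mice and 11.90 to 11.97 in sham mice, and Acta2, smooth muscle actin, at 11.12, 11.11 and 11.48 against 10.92, 11.01 and 10.97. The MCT + NI mice were the highest of all mice in both, and the count of 2 was 5 without mouse 617, 4 without mice 617 and 641, and 1 without mouse 640, without mice 644 and 615 or without the intensity trend. Of 28 proliferation genes 1 passed as lower, Atad5, which unloads the replication clamp, and of 24 p53 targets 1, the nuclease gene Aen, at -0.24 and -0.23. These were 3.57% and 4.17% of the lists, against 1.3% of all genes.

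The remaining lists gave few genes, where 1.59% of all genes passed as higher and 1.3% as lower. Of 27 genes of integrins and focal adhesion 2 passed as lower (7.41%), a count of 0 to 4 when 1 mouse was left out. They were the actin cross-linker gene Flna and the integrin activator gene Tln1 (-0.24 and -0.12). Of 30 proteasome subunits 1 passed as higher, Psma7 (0.09), of 28 genes of amino acid and urea handling only Mpst, of 25 matrix remodelling enzymes only Adamts1 (list median -0.038, but 0.0018 without mouse 617 and 0.040 without mice 641 and 617), and of 25 heat shock genes 0. Among the cell markers, 1 of 23 endothelial (Sox18), 1 of 16 smooth muscle (Acta2), 1 of 17 lymphocyte (Cd79a, 0.36) and 1 of 14 neutrophil and mast cell markers (Csf3r, 0.33) passed as higher, 1 of 8 nerve markers (Th, -0.27) as lower, and 0 of 14 adipocyte, 13 mesothelial and 5 red blood cell markers. Acta2 did not stand for its list. Of the 16 smooth muscle markers 7 had a higher mean with NI and 9 a lower one (median -0.011). The diet groups separated without overlap in 1 marker upward and in 2 downward. With the atrial score as a covariate 4 of the 13 mesothelial markers passed as higher (against 1.59% of all genes in the main fit), and 2 did without MCT mouse 644.

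**Figure D4:**
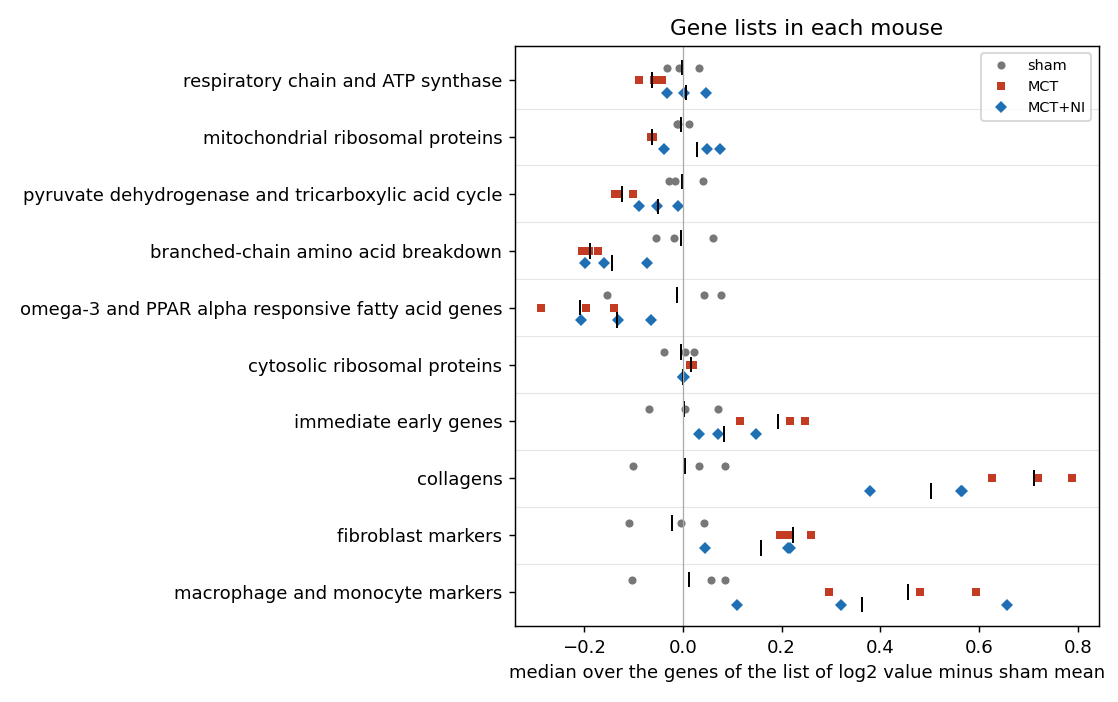
Median over the genes of each list of the log2 value minus the sham mean, for 10 lists, with 1 point per mouse (circles sham, squares MCT, diamonds MCT + NI) and a bar at the mean of each group. For the respiratory chain the squares lie between -0.09 and -0.04 and the diamonds between -0.03 and 0.05, around the sham mice, whereas for the collagens both monocrotaline groups lie far above sham, at 0.63 to 0.79 without NI and 0.38 to 0.57 with it.

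Measured against the sham level, NI and MCT values were alike in how many genes fell near it. The mean of the MCT + NI mice lay within the range of the 3 sham mice in 40.1% of all genes and that of the MCT mice in 40.0%. The MCT + NI mean was closer to the sham mean than the MCT mean in 49.9% of all genes and in 311 of the 545 genes at an unadjusted p under 0.05 (57.1%). The MCT arrays that selected the 545 genes also enter this distance. Of the 23 genes named above by difference, 8 were closer to sham with NI (Lamtor1, Mthfd2l, Myadml2, Mpst, Bhlhe40, Adamts1, Tgfb1i1 and Zfp800) and 15 were farther from it. The mean with NI lay within the sham range in 2 of them, Mpst and Bhlhe40. Relative to sham, the median of the respiratory chain list was -0.068 in MCT and 0.0023 in MCT + NI mice, that of mitochondrial ribosomal proteins -0.069 and 0.037, and that of the cycle genes -0.12 and -0.052. For branched-chain breakdown these medians were -0.18 and -0.15, for PPAR alpha responsive genes -0.22 and -0.15, and for collagens 0.71 and 0.51. With NI the respiratory chain list thus lay next to the sham level, and the branched-chain, fatty acid and collagen lists lay nearer to MCT than to sham. In the fatty acid list, however, the groups overlapped. Its per-mouse medians were -0.15 to 0.077 in sham, -0.29 to -0.14 in MCT and -0.21 to -0.065 in MCT + NI mice. The comparisons share the sham arrays and the values are set side by side without a test.

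The largest differences between the diet groups in size, those of Erdr1, Hamp, Sln and Tmem163, lay in genes that differed among mice of 1 group. Among the next in size, the dim genes Olfr591 (-0.75), Hormad1 (-0.74) and Olfr293 (0.65) separated the diet groups without overlap. Hamp, a peptide hormone of iron balance, was at 6.36, 4.34 and 1.84 with NI and 4.02, 3.38 and 8.98 in MCT mice, with 7.63 to 9.24 in sham mice. Sln, an inhibitor of the calcium pump in the atrium, was at 5.71, 3.23 and 3.39 against 3.81, 4.15 and 7.23, and Tmem163, a zinc transporter, at 6.96, 4.61 and 4.72 against 4.78, 5.10 and 8.97. In all 3 genes MCT mouse 644 and MCT + NI mouse 615 stood highest in their groups, as in the atrial markers, and the differences of -1.28, -0.95 and -0.86 turned positive without MCT mouse 644 (0.48, 0.13 and 0.49). Of the 16 genes listed as atrial markers 11 had a lower mean with NI (median -0.22, but 0.24 without MCT mouse 644). Only Kcna5, a potassium channel, passed, at 6.05, 6.23 and 6.03 with NI and 5.66, 5.76 and 5.82 in MCT mice. Sham mice were lowest in Kcna5 (5.16 to 5.65), so it did not follow Myl7, which was strong in them. Erdr1 had the largest difference upward, 1.64 (95% interval 0.02 to 3.25), with 9.15, 10.10 and 8.89 with NI and 5.89, 8.34 and 9.0 in MCT mice, so that MCT mouse 640 was lowest, MCT + NI mouse 617 highest and the others overlapped.

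Clock and interferon transcripts also split the groups. Ciart, Arntl and Ifit1 are given as examples chosen after their values had been seen. Ciart, a clock repressor, was at 7.47 in MCT mouse 641 and 7.58 in MCT + NI mouse 617, against 5.85 and 5.82 in MCT mice 640 and 644 and 5.41 and 4.91 in MCT + NI mice 615 and 619. Arntl, the clock activator, ran the other way, at 4.63 and 4.09 in mice 641 and 617 and 6.07 to 7.25 in the 4 other mice. Mice 641 and 617 were thus within or next to the sham values of both genes (6.51 to 7.88 and 4.44 to 5.72). Of 19 clock genes 1 passed in each direction (5.26% each, against 1.59% of all genes as higher and 1.3% as lower). They were Cry1, at 5.44, 6.12 and 5.47 with NI against 5.16, 5.33 and 5.15 in MCT mice, and Bhlhe40. Without mouse 617, 0 passed as higher and 5 as lower. Mouse 617 was the highest of the NI mice in Cry1 and the highest in the respiratory chain list, and the part of clock phase in these lists was not tested. The interferon-induced gene Ifit1 was at 8.31 in MCT mouse 640 and 7.69 and 8.32 in MCT + NI mice 615 and 619, with 5.62 and 7.10 in MCT mice 641 and 644 and 6.52 in mouse 617. Its groups overlapped (difference 0.50, unadjusted p = 0.45 in limma).

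**Figure D5:**
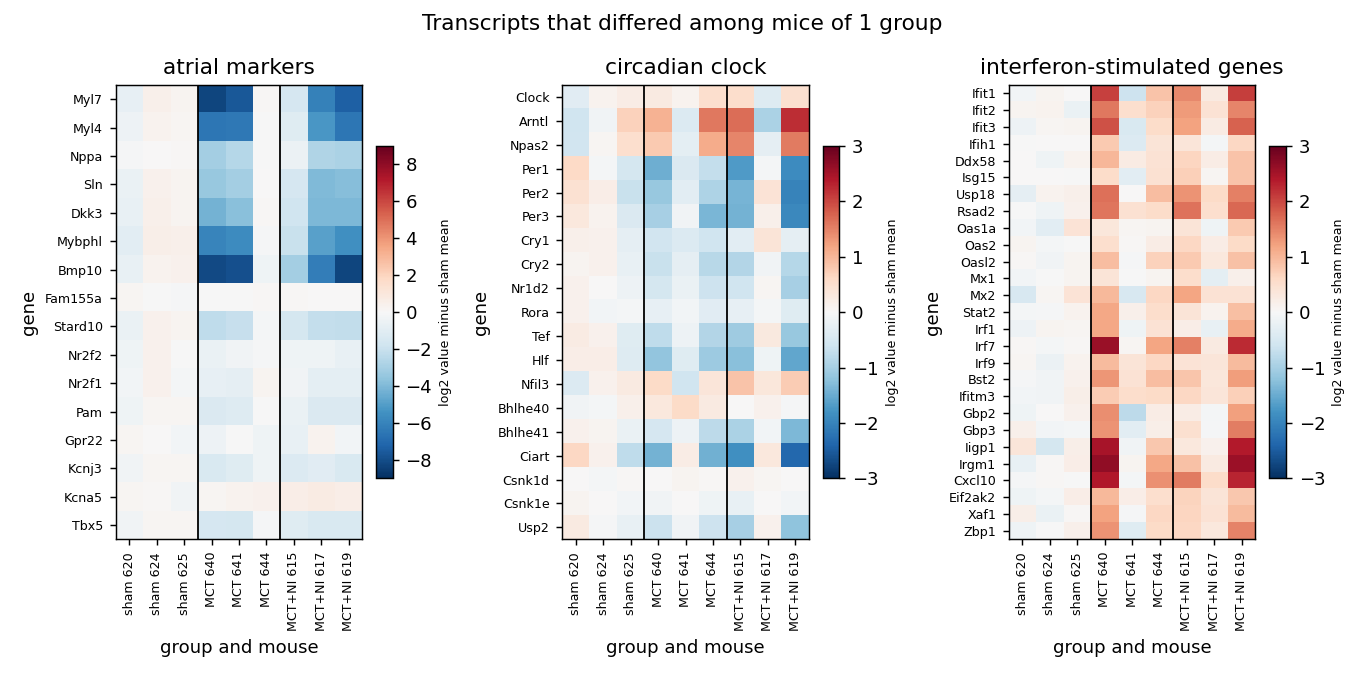
Log2 value minus the sham mean of each gene of the atrial, clock and interferon lists in each of the 9 mice, with vertical lines between the groups (sham, MCT, MCT + NI) and its own colour range for each list. MCT mouse 644 and MCT + NI mouse 615 are nearest to sham in the atrial markers, and MCT mouse 641 and MCT + NI mouse 617 in the clock and interferon genes.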

How the data were processed

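RNA of the right ventricle was hybridized to 9 Affymetrix mouse gene 1.1 ST arrays, 1 per mouse. The authors computed RMA values, named without a version in the submitters' processing notes, and the deposited table gives log2 intensities of 35556 probe sets in the manufacturer's numbering, whereas according to the methods probe sets had been remapped to Entrez genes. RMA aligns the distributions of the arrays, so a shift of all genes is not measured, and raw scans were not used here. Through the platform annotation 21218 probe sets had 1 gene, 1881 several and 12457 none. Only those with 1 gene were used, the brightest for each of 1386 genes that had several.

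limma 3.58.1 (R 4.3.3) fitted 1 mean per group over the 9 mice with an intensity trend. P-values are two-sided and adjusted by Benjamini-Hochberg over 18820 genes, and p-values measure the spread between 3 mice per group. Lists (45, of 1216 symbols 1110 matched) are described by counts at an unadjusted p under 0.05 and medians, with no set test. The members, lists and rules were chosen with earlier results of these data known. Genes named were, per direction, the 12 with the largest difference at an unadjusted p under 0.01 without overlap and at or above the median level, the 5 with the smallest p and the 8 with the largest difference (of which some are described), up to 3 members per list, genes measured by PCR and the atrial markers. Ndufa6, Uqcr11, Ndufa4, Atp5b, Atp5d, Myl2, Ciart, Arntl and Ifit1 fall outside this rule and were chosen after their values were seen. Promoters were read from RefSeq windows (GRCm38.p6). The deposited values hold many ties: 12042 genes have 1 value in at least 2 mice. The fit was tested on simulated data. Alternatives left out each mouse, pairs of mice, and changed the normalization, the moderation, the filter and the use of probe sets.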

Additional observations from a re-analysis of the deposited data

How the results depend on the processing

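The number of genes that differed by diet at an adjusted p under 0.05 was 0 in limma under all alternatives run. The number at an unadjusted p under 0.05 (545) ranged from 501 to 699 when 1 mouse was left out, and that at an unadjusted p under 0.01 (71) from 67 to 120, with 108 without MCT mouse 641, 119 without MCT + NI mouse 617 and 120 without MCT + NI mouse 615. With all 35556 probe sets these numbers were 1200 and 248, a rise larger than that in features tested whose cause was not tested, and with the genes at or above the median level 298 and 42, because fewer were. Leaving out mice 641 and 617, chosen after seeing the data, gave 602 and 88. Of the 100 genes followed through the alternatives, 90 kept their direction in all. When 1 mouse was left out, the log2 difference of Hamp ranged from -2.37 to 0.48, of Sln from -1.75 to 0.13, of Tmem163 from -1.62 to 0.49, of Bmp10 from -1.77 to 2.19, of Myl7 from -1.48 to 2.95, of Tnf from -0.28 to 0.042, of Ciart from -1.22 to 0.13, of Arntl from -0.37 to 1.21, of Ifit1 from -0.20 to 1.15 and of Atp5b from -0.016 to 0.0012. Bmp10 (-0.36) was at 0.17 with the atrial score as a covariate and at 0.78 without mice 644 and 615, Myl7 (0.27) at -0.38 without mice 641 and 617, and Atp5b at 0.0039 after median centring and at 0.0060 without mice 644 and 615. The cause was not tested. Of the 45 list medians 24 took the opposite sign under at least 1 alternative. Those of the respiratory chain (0.054 to 0.090), mitochondrial ribosome (0.074 to 0.12), cycle (0.037 to 0.082) and branched-chain genes (0.047 to 0.094) stayed positive in all. So did those of PPAR alpha responsive genes (0.037 to 0.10), adipocyte markers (0.030 to 0.093) and amino acid and urea handling (0.019 to 0.097). The medians of glycolysis, proteasome, hypertrophy and ventricular marker genes also stayed positive. No paired analysis was possible because the mice of the groups share no replicate number.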
